A study of Homo sapiens with 6 samples.

Results

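The retinoid uptake and signalling genes are 9 genes that act in successive steps of vitamin A use: STRA6, CRABP1, CRABP2, ALDH1A1, ALDH1A3, DHRS3, RARA, RARB and RARG. They were compared by RNA-seq between 3 control libraries of H1299 cells (shControl, carrying a control shRNA) and 3 knockdown libraries (shEphexin1, carrying an shRNA against Ephexin1, a guanine nucleotide exchange factor encoded by NGEF). H1299 is a human non-small cell lung cancer line, and the shRNAs of both groups were expressed from a plasmid with a U6 promoter. The shEphexin1 libraries share a stem in their names and the methods describe stable knockdown clones, so they may be repeats of 1 clone, and the errors given here then describe only the spread between repeat libraries. The genes were selected by name from the 26255 genes of the table with earlier results of this same contrast in view. Their values in it are therefore given as a description, without p-values. Whether they were called is stated only as a label from the fit of all genes, not as evidence.

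Retinol circulates bound to a carrier protein and can enter cells through the membrane receptor STRA6. Inside the cell it is oxidised to retinal and then, by ALDH1A enzymes, to retinoic acid, while DHRS3 reduces retinal back to retinol. CRABP2 delivers retinoic acid to the nucleus, where the retinoic acid receptors RARA, RARB and RARG bind DNA as heterodimers with a retinoid X receptor, and STRA6, DHRS3 and RARB are themselves known as genes that retinoic acid can induce.

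Expression is given as FPKM, a fragment count per unit of transcript length and of sequencing, so that levels can be compared between genes. The sequencing depth behind these values is unknown. Log2 fold changes are shEphexin1 over shControl on the log2(FPKM + 0.1) scale, which understates the change of genes with low values, and SE is the standard error of the fitted difference. A gene was tested if it reached 0.1 FPKM in at least 3 of the 6 libraries, and it was called where the adjusted p did not exceed 0.025 and the groups differed at least 2-fold. Of the 9 retinoid genes, 6 were tested and 3 (CRABP1, ALDH1A1 and ALDH1A3) stayed under the filter.

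NGEF, the targeted gene, gave 13.3, 11.7 and 16.4 FPKM across the controls and 9.81, 8.25 and 10.5 FPKM across the knockdown. The groups did not overlap and the shEphexin1 mean was 68.9% of the control mean, but the gene was not called (log2 fold change -0.53, SE 0.16, limma adjusted p = 0.103). These values are RNA only. The authors checked Ephexin1 protein by western blot in their stable knockdown cells, H1299 among them. Replicate 2 of both groups stood apart from the other 4 libraries: the deviation of each library from its group mean, across 15236 genes, had a Spearman's rho with GC content of -0.688 and -0.758 in the replicates 2 and of 0.335 to 0.664 in the others. Of 6 markers of other cell types, PTPRC and LUM were at 0 in all 6 libraries, and the summed level of the 6 was 0.151 to 0.273 FPKM in shControl and 0.274 to 0.439 FPKM in shEphexin1 libraries. The sums of the groups nearly touched. COL1A1, a fibroblast marker named after its values were seen, averaged 0.0977 and 0.269 FPKM without overlap. Of the markers expected in H1299, the epithelial keratin KRT8 averaged 6.78 ± 1.65 FPKM in the controls and 3.13 ± 0.43 FPKM after knockdown (SD, n = 3). KRT18 averaged 88.9 ± 20.9 and 46.2 ± 9.32 FPKM, and both keratins were lower without overlap. VIM overlapped, at 2165 ± 178 and 2492 ± 225 FPKM. KRT18 and VIM were not called (log2 fold changes -0.94 and 0.20). The part of these markers in the results was not tested. KRT8 was not called (log2 fold change -1.07, limma adjusted p = 0.0304), but it was called from replicates 1 and 3 alone (-1.15, limma adjusted p = 0.00705), with a term for replicate 2, with median centring and without shControl replicate 2.

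The DNA upstream of these genes was searched for the hexamers that retinoic acid receptors are known to bind. The windows were the 250 bases before each start that RefSeq gives on GRCh38.p14, and the motifs were AGGTCA and the variants AGTTCA or GGGTCA or else GGTTCA, on either strand. The 9 genes and RXRA, a retinoid X receptor described further on, matched 22 windows, and 10 of them (45.5%) held at least 1 hexamer, against 33.8% of all 35116 windows. A direct repeat of the hexamer with 5 bases between the copies, the arrangement best known for these receptors, was in 1 of the 22 windows, that of RARB, and in 0.0740% of all windows. Such a repeat contains 2 of the hexamers counted above. Repeats with 1 or 2 bases between the copies were in 0 of the 22 windows and in 0.0968% and 0.0313% of all windows. The STRA6, DHRS3 and RARB windows are shown because these genes are known targets of retinoic acid; where a gene has several starts, the window with the most hexamers is given, and for DHRS3 it is the first listed of 2 windows with 1 hexamer each. Each is written 5′ to 3′ on the strand of the gene, at chr15:74212260-74212509 (minus strand), chr1:12616790-12617039 (minus strand) and chr3:25428013-25428262 (plus strand), with the hexamers in capitals.
STRA6: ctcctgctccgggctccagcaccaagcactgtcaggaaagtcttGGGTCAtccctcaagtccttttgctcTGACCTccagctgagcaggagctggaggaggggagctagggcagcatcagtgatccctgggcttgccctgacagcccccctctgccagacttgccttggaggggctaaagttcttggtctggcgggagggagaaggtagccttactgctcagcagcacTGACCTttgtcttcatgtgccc
DHRS3: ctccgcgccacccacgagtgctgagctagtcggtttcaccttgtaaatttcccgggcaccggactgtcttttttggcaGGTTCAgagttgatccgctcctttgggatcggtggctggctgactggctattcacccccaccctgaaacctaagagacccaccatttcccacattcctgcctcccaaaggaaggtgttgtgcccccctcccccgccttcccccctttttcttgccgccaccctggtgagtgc
RARB: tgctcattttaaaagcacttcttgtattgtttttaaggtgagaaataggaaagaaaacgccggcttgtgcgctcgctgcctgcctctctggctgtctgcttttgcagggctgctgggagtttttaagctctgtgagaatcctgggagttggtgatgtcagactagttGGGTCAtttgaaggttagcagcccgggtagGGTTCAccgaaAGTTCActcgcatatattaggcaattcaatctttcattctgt
The STRA6 window held 3 hexamers and the DHRS3 window 1. In the RARB window the spaced repeat lay from 53 to 37 bases before the start. A match shows only that these letters are there, and these data hold no measurement of receptor binding.

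Across the 6 libraries the retinoid genes ranged from 0 FPKM for CRABP1 to 25.1 FPKM for CRABP2. In shControl the order of the mean levels was CRABP2, RARG, DHRS3, RARA, RARB and STRA6, followed by the 3 genes under the filter. DHRS3 and RARA overlapped there, as did RARB and STRA6. In shEphexin1 the order was CRABP2, RARG, DHRS3, STRA6, RARA and RARB, and there RARG overlapped with DHRS3 and STRA6 with RARA. STRA6 thus stood at the level of RARB in shControl and at that of RARA in shEphexin1.

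**Figure D1:**
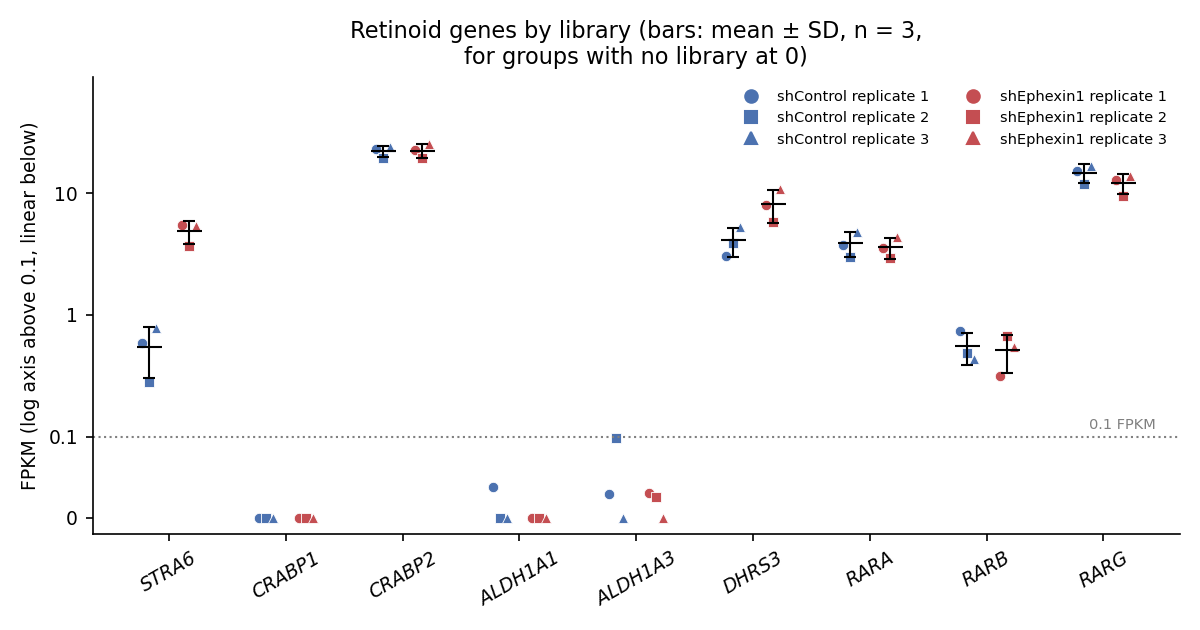
FPKM of the 9 retinoid genes in each library, on an axis that is logarithmic above 0.1 FPKM and linear below, with circles, squares and triangles for replicates 1, 2 and 3 and black bars for the mean ± SD (n = 3) of groups with no library at 0. The 3 shEphexin1 libraries lie above the 3 shControl libraries for STRA6 (3.67 to 5.48 against 0.282 to 0.774 FPKM) and DHRS3 (5.83 to 10.8 against 3.05 to 5.28 FPKM), and the groups overlap for CRABP2, RARA, RARB and RARG.

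STRA6, the membrane receptor for retinol uptake, had control values of 0.591, 0.282 and 0.774 FPKM and knockdown values of 5.48, 3.67 and 5.40 FPKM. Every shEphexin1 library was above every shControl library, and replicate 2 was the lowest of each group. The means were 0.549 ± 0.249 and 4.85 ± 1.02 FPKM (SD, n = 3). The log2 fold change was 2.99 (SE 0.33), which ranked as the 17th highest of the 16020 genes tested. In such bulk libraries a change in the share of cells with STRA6 RNA and a change in its amount per cell cannot be told apart. STRA6 was the only retinoid gene of the 9 that was called; of all genes tested, 1.89% were called, 0.893% as higher and 0.999% as lower, and 3.41% passed the adjusted p alone, and nothing is read from the comparison because the gene was selected on this contrast. Replicates 1 and 3 alone gave a log2 fold change of 2.83 and replicate 2 gave 3.30. STRA6 was no longer called without shControl replicate 1 (log2 fold change 3.08), without shEphexin1 replicate 1 (2.89) or without shEphexin1 replicate 3 (2.90), and a pseudocount of 1 FPKM lowered the fold change to 1.91. STRA6 spans chr15:74471807-74504608 on the minus strand (GRCh37). CCDC33 shares 9563 of these bases on the opposite strand and was at 0 to 0.185 FPKM, and whether the counting used the strand of the reads is not given in the sources used here.

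Of the retinoic acid binding proteins only CRABP2 could be compared, and unlike those of STRA6 its groups did not separate. CRABP2 was the most abundant of the 9 genes, with control values of 22.9, 19.5 and 23.8 FPKM and knockdown values of 22.6, 19.3 and 25.1 FPKM. The groups overlapped almost completely (22.1 ± 2.28 against 22.3 ± 2.91 FPKM, SD, n = 3), and the log2 fold change was 0.02 (SE 0.14). CRABP1, its paralog, was listed at 0 in all 6 libraries.

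Of the enzymes, the retinaldehyde dehydrogenases that make retinoic acid were at or near 0. ALDH1A1 was at 0.0381 FPKM in shControl replicate 1 and at 0 in the other 5 libraries. ALDH1A3 had 0.0299, 0.0982 and 0 FPKM in the controls, against 0.030, 0.0259 and 0 FPKM after knockdown. No direction can be read from such values.

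DHRS3, the reductase that returns retinal to retinol, gave 3.05, 3.91 and 5.28 FPKM across the controls and 8.0, 5.83 and 10.8 FPKM across the knockdown. All shEphexin1 libraries were above all shControl libraries, though the highest shControl library (replicate 3) and the lowest shEphexin1 library (replicate 2) lay close together. The means were 4.08 ± 1.12 and 8.20 ± 2.48 FPKM (SD, n = 3). At a log2 fold change of 0.98 (SE 0.27) DHRS3 was not called. The difference was larger in replicates 1 and 3 (log2 fold change 1.19) than in replicate 2 (0.56). STRA6 and DHRS3 were the 2 retinoid genes whose groups did not overlap; over all genes tested the groups did not overlap for 28.3%, with shEphexin1 higher in 12.8%. DHRS3 lies at chr1:12627939-12678216 on the minus strand (GRCh37).

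The groups of the retinoic acid receptors overlapped. RARG, the most abundant of them, had control values of 15.3, 11.9 and 16.8 FPKM and knockdown values of 12.7, 9.49 and 13.9 FPKM, a log2 fold change of -0.29 (SE 0.19). RARA had 3.78, 3.01 and 4.82 FPKM in the controls, against 3.51, 2.92 and 4.34 FPKM after knockdown, a log2 fold change of -0.10 (SE 0.22). In both genes replicate 2 was the lowest library of each group, and the groups overlapped. Each shEphexin1 library was below the shControl library of the same number. Same-numbered libraries were not taken as pairs, so nothing is read from this order, and neither gene was called. For RARG the log2 fold change was -0.27 in replicates 1 and 3 and -0.33 in replicate 2, and for RARA -0.13 and -0.04. RARA-AS1 shares 2270 bases with RARA on the opposite strand and was at 0.741 to 1.81 FPKM, so the open point on strand given for STRA6 holds for RARA as well. RARB gave 0.738, 0.486 and 0.430 FPKM across the controls and 0.316, 0.667 and 0.549 FPKM across the knockdown. Its libraries were mixed (log2 fold change -0.11, SE 0.32), and the sign differed between replicates 1 and 3 (-0.36) and replicate 2 (0.39). Of the 6 genes tested, 3 had a positive and 3 a negative log2 fold change, with a median of -0.04, beside a median of -0.01 over all genes tested.

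The other genes of the pathway were described from a list of 45, of which 26 were tested. This list, with RXRA in it, and the list of responsive genes below were also chosen with earlier results of these data known. Their p-values and calls are therefore no independent evidence, and the alternatives reuse the same libraries. By the test of all genes 1 was called higher, RXRA, and 0 were called lower, while 8 (30.8%) had an unadjusted p under 0.05 in limma, against 23.3% of all genes tested. The groups did not overlap for 10 genes, with shEphexin1 higher in 6 and lower in 4, and over all genes tested they did not overlap for 28.3%, with shEphexin1 higher in 12.8% and lower in 15.4%. The median log2 fold change was 0.20. RXRA and RDH12 passed the filter only through their shEphexin1 libraries. Both are among the 6 genes with shEphexin1 higher and the 8 with an unadjusted p under 0.05 in limma.

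RXRA encodes the retinoid X receptor alpha, a dimer partner of the retinoic acid receptors. It had control values of 0.0810, 0.0858 and 0.0777 FPKM and knockdown values of 1.80, 1.31 and 2.19 FPKM. The shControl libraries were all just under the filter, so the gene was tested only because of the shEphexin1 libraries, and with no filter its limma adjusted p was 0.00197. The groups lay far apart. The log2 fold change was 3.33 (SE 0.26), the 12th highest of all genes tested. RXRA was called (limma adjusted p = 0.00112), and also under every alternative run (0.000208 to 0.0140). The gene was chosen with this contrast known, and every alternative reuses the same libraries, so these calls are labels and not evidence. Replicates 1 and 3 alone gave 3.54 and replicate 2 gave 2.92. The size depends on the pseudocount, since the log2 fold change was 1.34 with 1 FPKM and 4.25 with 0.01 FPKM. RXRA spans chr9:137208944-137332431 on the plus strand (GRCh37).

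RXRB, a broadly expressed retinoid X receptor, was the abundant member of its family, averaging 12.7 ± 1.59 FPKM in the controls and 13.8 ± 2.94 FPKM after knockdown (SD, n = 3; log2 fold change 0.10, limma adjusted p = 0.807). RXRG was above 0 in 1 library only. RXRA thus made up 0.542% to 0.768% of the summed retinoid X receptor FPKM in shControl and 10.6% to 12.2% in shEphexin1. RARG made up 76.2% to 77.3% of the summed retinoic acid receptor FPKM in shControl and 72.6% to 76.9% in shEphexin1. The summed retinoic acid receptors over the summed retinoid X receptors gave a ratio of 1.53, 1.38 and 1.54 in shControl and of 0.974, 1.10 and 1.05 in shEphexin1. These ratios did not overlap between the groups, with lower values in shEphexin1, and since the ratio holds genes selected on this contrast it was not tested. Each sum alone overlapped. The retinoic acid receptors summed to 15.4 to 22.1 FPKM in shControl and 13.1 to 18.8 FPKM in shEphexin1. The retinoid X receptors summed to 11.2 to 14.3 and 11.8 to 18.0 FPKM. The part of each gene in the lower ratio was not tested.

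**Figure D2:**
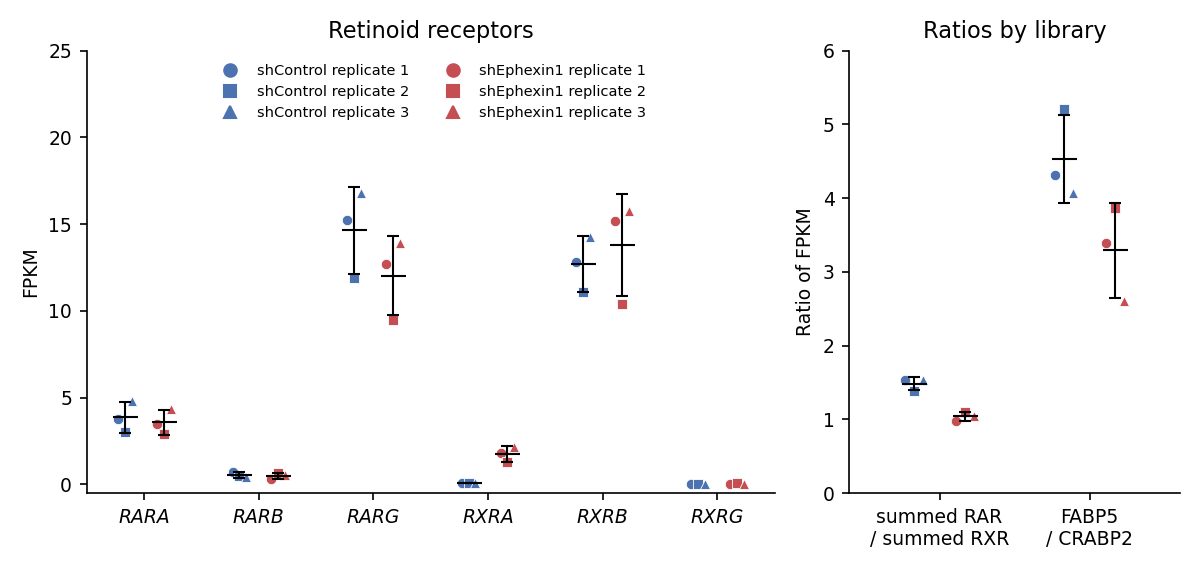
Left, FPKM of the 3 retinoic acid receptors and the 3 retinoid X receptors by library; right, the ratio of their summed FPKM and the ratio of FABP5 to CRABP2, with symbols for replicates and black bars for mean ± SD (n = 3) of groups with no library at 0. RXRA is near 0 in shControl and at 1.31 to 2.19 FPKM in shEphexin1, while RXRB overlaps, and the receptor ratio is 1.38 to 1.54 in shControl and 0.974 to 1.10 in shEphexin1.

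Retinoic acid can also be carried by FABP5, a fatty acid binding protein that delivers it to the receptor PPARD. FABP5 had 98.8, 102 and 96.8 FPKM in the controls, against 77.0, 74.6 and 65.3 FPKM after knockdown. The groups did not overlap, but the gene was not called (log2 fold change -0.46, SE 0.10, limma adjusted p = 0.0409). The ratio of FABP5 to CRABP2 was 4.07 to 5.21 in shControl and 2.60 to 3.87 in shEphexin1. PPARD was at 2.84 ± 0.38 and 3.39 ± 1.19 FPKM (SD, n = 3) and overlapped.

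Among the genes of transport and storage, 4 of 11 were tested and 0 were called. RBP7, a cellular retinol binding protein, gave 14.7, 15.0 and 15.2 FPKM across the controls and 8.66, 9.24 and 7.01 FPKM across the knockdown. The shControl libraries were nearly equal and the shEphexin1 libraries all lower. RBP7 passed the adjusted p but not the 2-fold limit (log2 fold change -0.85, SE 0.14, limma adjusted p = 0.0158, 0.00112 to 0.0921 over the alternatives, so that it missed the limit under some). BCO2, an enzyme that cleaves carotenoids, had control values of 0.123, 0.367 and 0.145 FPKM and knockdown values of 0.630, 0.718 and 0.582 FPKM, and missed the adjusted p (log2 fold change 1.33, SE 0.34, limma adjusted p = 0.060, 0.0117 to 0.206 over the alternatives, called with a term for replicate 2). Replicates 1 and 3 differed by a log2 fold change of 1.59 and replicate 2 by 0.81. DGAT1, which esterifies retinol, and the intestinal binding protein RBP2 had log2 fold changes of 0.07 and 0.61 with overlapping groups. The plasma carriers RBP4 and TTR were listed at 0 in all 6 libraries.

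Of 16 genes that interconvert retinol and retinal, 10 were tested and 0 were called, with 2 (against 23.3% of all genes tested) at an unadjusted p under 0.05 in limma. The most abundant was ADH5, a broadly expressed alcohol dehydrogenase, averaging 89.9 ± 3.6 FPKM in the controls and 72 ± 6.38 FPKM after knockdown (SD, n = 3; log2 fold change -0.32, limma adjusted p = 0.116). The retinol dehydrogenases RDH11, RDH14 and RDH10 had log2 fold changes of -0.12, 0.30 and 0.21. RDH12, a retinal reductase named here after its values were seen, had 0.0928, 0.0446 and 0 FPKM in the controls, against 0.260, 0.212 and 0.476 FPKM after knockdown. It also reached the filter only in the shEphexin1 libraries, and it was not called (limma adjusted p = 0.0663).

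AOX1, an aldehyde oxidase that can act on retinal, was the 1 gene tested of the 3 further genes of retinoic acid synthesis. It gave 5.66, 5.88 and 4.63 FPKM across the controls and 9.18, 8.85 and 9.17 FPKM across the knockdown. All shEphexin1 libraries were higher, and AOX1 passed the adjusted p but not the 2-fold limit (log2 fold change 0.75, SE 0.14, limma adjusted p = 0.0230, 0.00239 to 0.119 over the alternatives, so that it missed the limit under some). The retinoic acid hydroxylases CYP26A1, CYP26B1 and CYP26C1, which clear retinoic acid and are known to be induced by it, did not pass the filter and reached at most 0.133 FPKM in any library. All 7 coregulators were tested and 0 were called, with 1 (14.3%, against 23.3% of all genes tested) at an unadjusted p under 0.05 in limma. Of the 4 most abundant, PRAME, a repressor of retinoic acid receptors, and the corepressor NCOR1 had log2 fold changes of 0.20 and 0.23, and the coactivators NCOA2 and NCOA3 had -0.27 and -0.20.

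A list of 19 genes known to respond to retinoic acid in various cells held 13 that were tested. In limma 0 of them were called, 5 (38.5%, against 23.3% of all genes tested) had an unadjusted p under 0.05, and the median log2 fold change was 0.03. All shEphexin1 libraries were higher for 2 and lower for 4 of the 13, beside 12.8% and 15.4% of all genes tested. RAI14, a gene found by its induction by retinoic acid, averaged 11.4 ± 1.06 FPKM in the controls and 7.05 ± 0.58 FPKM after knockdown (SD, n = 3; log2 fold change -0.68, limma adjusted p = 0.0280). The homeobox genes HOXB4, MEIS2 and HOXA5 had log2 fold changes of -0.34, 0.13 and -0.16. The members of the list with the largest differences in each direction, named after their values were seen, were HOXB5 and RARRES3. HOXB5 had control values of 2.07, 2.03 and 2.35 FPKM and knockdown values of 1.41, 0.548 and 0.747 FPKM (log2 fold change -1.26, limma adjusted p = 0.0568). RARRES3, a phospholipase induced by retinoids, had 0.698, 0.561 and 0.846 FPKM in the controls, against 1.49, 1.07 and 1.58 FPKM after knockdown (log2 fold change 0.88, limma adjusted p = 0.0705). The groups of both genes lay apart, in opposite directions, and neither gene was called. HOXB5 was called with a term for replicate 2 (limma adjusted p = 0.0103), and its adjusted p ranged from 0.0103 to 0.182 over the alternatives.

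**Figure D3:**
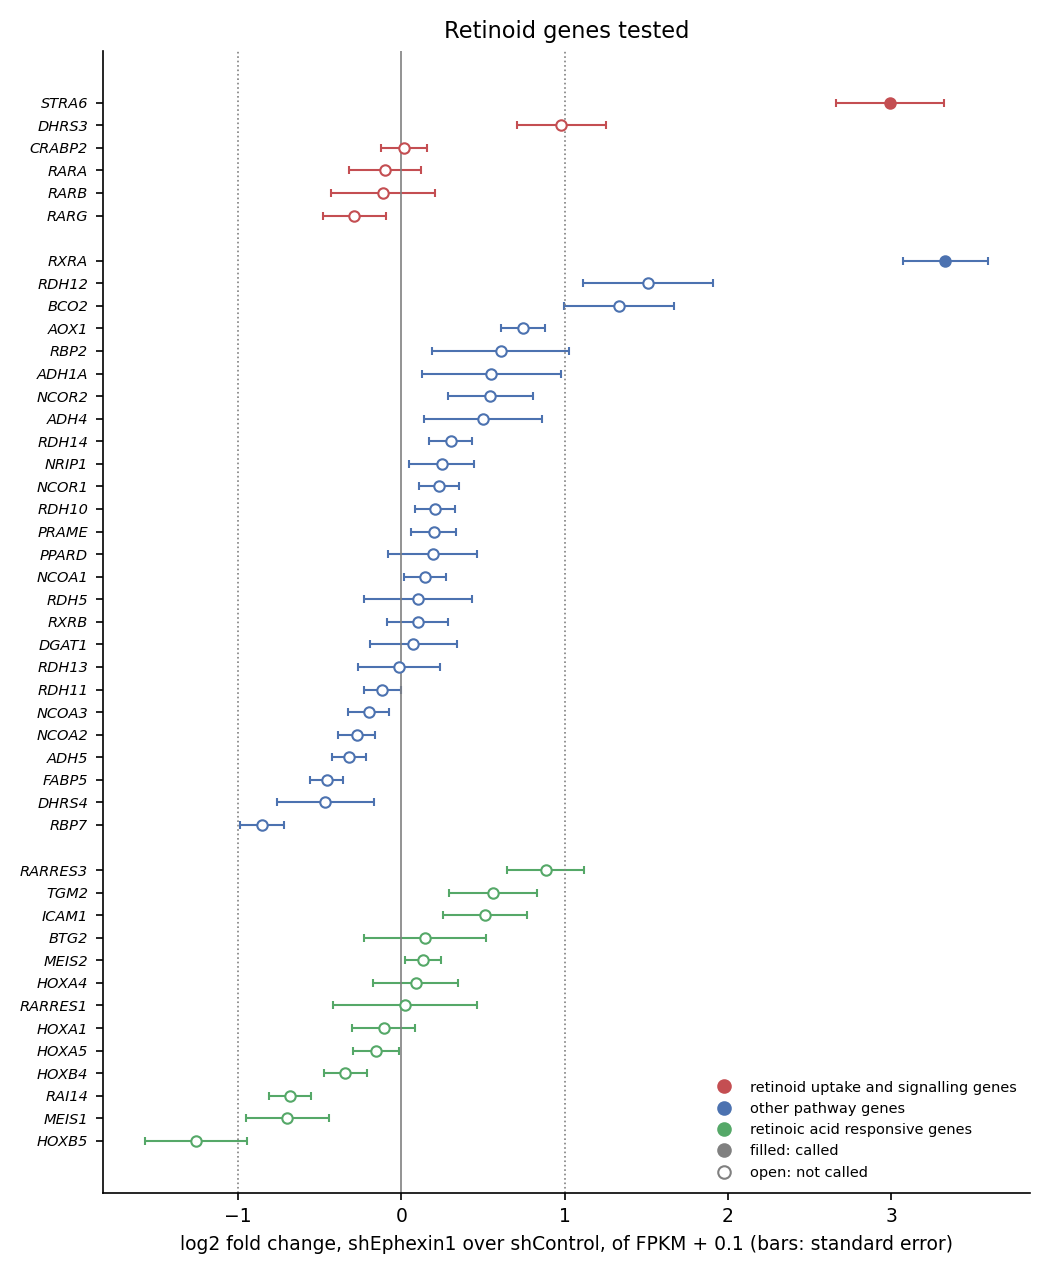
Log2 fold change, shEphexin1 over shControl, of FPKM + 0.1 with its standard error for the 6 retinoid genes, 26 other pathway genes and 13 retinoic acid responsive genes tested, filled where called; dotted lines mark 2-fold. STRA6 (2.99) and RXRA (3.33) are the only filled points, and most other genes lie within the dotted lines.

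The genes whose pattern over the 6 libraries was closest to that of STRA6 were found among 12637 genes by the root mean square difference of log2(FPKM + 0.1), centred on the mean of each gene. The closest was SEMA7A, a membrane-anchored semaphorin, at a difference of 0.267, with control values of 0.545, 0.286 and 0.716 FPKM and knockdown values of 3.56, 2.4 and 3.62 FPKM. Its levels ran close to those of STRA6 in the shControl libraries. In the shEphexin1 libraries they were lower than those of STRA6 (5.48, 3.67 and 5.40 FPKM). Replicate 2 was the lowest of both groups, as it also was for RARA and RARG. Over 6 libraries of 2 groups this measure favours genes with a like difference between the groups, on which STRA6 was selected. Shared regulation was not tested. ANPEP, an aminopeptidase of the cell surface, followed at a difference of 0.311, with control values of 19.1, 16.7 and 21.4 FPKM and knockdown values of 123, 104 and 145 FPKM. ARHGEF16, a guanine nucleotide exchange factor, had a difference of 0.313, with control values of 0.246, 0.0789 and 0.324 FPKM and knockdown values of 3.82, 2.76 and 4.15 FPKM.

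SEMA7A (chr15:74701630-74726299, GRCh37) is also a neighbour of STRA6 on chromosome 15. Within 250 kb of STRA6 the table lists 11 genes, of which 7 were tested, 5 had a positive log2 fold change and 2 were called higher, with a median of 0.33. Over all genes tested 0.893% were called higher. The called genes were SEMA7A (log2 fold change 2.46) and ISLR, a leucine-rich repeat gene that ends 2.59 kb from STRA6 at chr15:74466051-74469213 on the plus strand. ISLR gave 0.192, 0.124 and 0.189 FPKM across the controls and 3.76, 2.24 and 4.26 FPKM across the knockdown, a log2 fold change of 3.67. LOXL1, STOML1, PML, UBL7 and UBL7-AS1 in the same stretch were not called, with log2 fold changes of 0.32, 0.33, 0.56, -0.20 and -0.02. Around DHRS3 only VPS13D was tested of 9 genes listed (log2 fold change 0.17), and around RXRA the 2 genes tested of 4 listed had a median of -0.12. None of these 3 was called. Around CRABP1, CRABP2, ALDH1A1, ALDH1A3, RARB and RARG there were 10, 14, 1, 2, 4 and 18 genes tested, and 0 were called. Of 12 genes tested around RARA, IGFBP4, an insulin-like growth factor binding protein, was called, with control values of 0.423, 0.243 and 0.30 FPKM and knockdown values of 1.71, 1.05 and 1.87 FPKM. SEMA7A was no longer called without shControl replicate 1 (log2 fold change 2.53), without shEphexin1 replicate 1 (2.37) or without shEphexin1 replicate 3 (2.36), and IGFBP4 was no longer called without any 1 of the 5 libraries other than shEphexin1 replicate 2 (log2 fold change 1.79 to 2.11) or with a pseudocount of 1 FPKM (0.93). These neighbours were named after their values were seen.

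**Figure D4:**
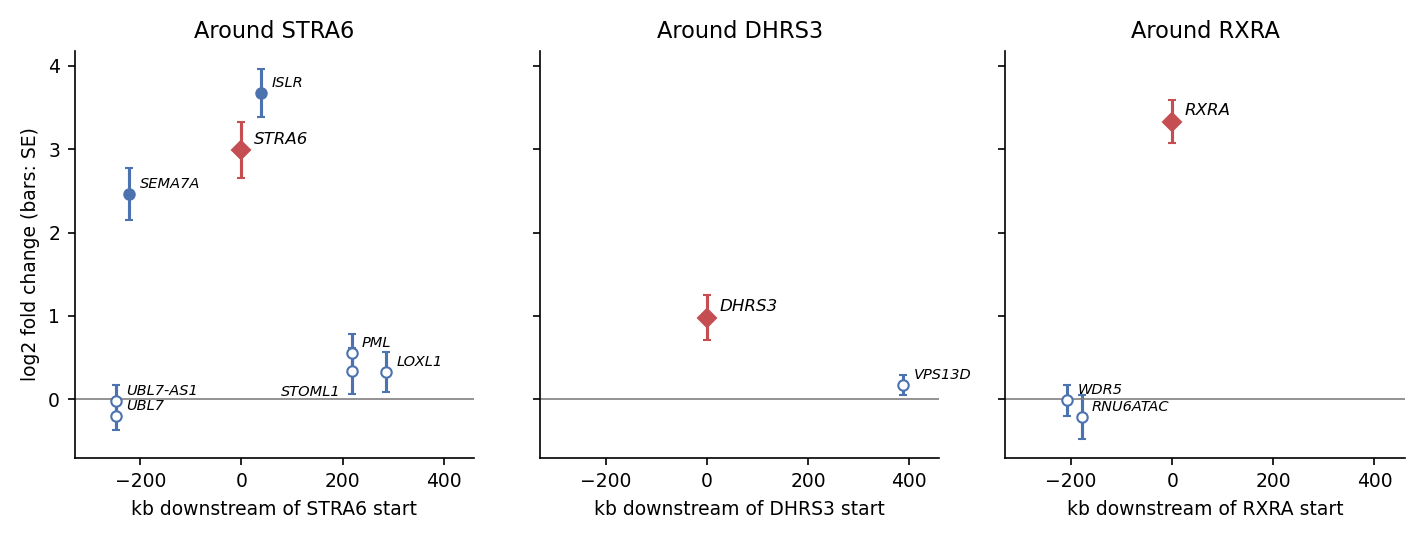
Log2 fold change with its standard error of the genes tested within 250 kb of STRA6, DHRS3 and RXRA, against the distance of their start in kb from that of the named gene, positive in its direction of transcription; diamonds are the named genes and filled circles are neighbours that were called. ISLR (3.67) and SEMA7A (2.46) lie near the value of STRA6 (2.99), and the other neighbours lie within 1 of 0.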

How the data were processed

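TRIzol-extracted total RNA of H1299 cells (3 shControl and 3 shEphexin1 libraries, stranded) was sequenced on a NovaSeq. Reads were aligned by the authors with TopHat 2.0.13 (GRCh37/hg19), and they deposited FPKM per gene and library from Cuffdiff 2.2.1, with geometric normalization and pooled dispersion; the gene annotation is not given in the sources used here. FPKM carry no read counts, so depth is unknown and no counting interval is given.

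A gene had to reach 0.1 FPKM in 3 or more of the 6 libraries (16020 of 26255 did). Their log2(FPKM + 0.1) values were fitted in R 4.3.3 by lmFit and trended eBayes of limma 3.58.1, and p-values were adjusted by Benjamini-Hochberg over all genes tested. The script was tested on simulated data. Libraries were grouped by their labels. Positions are from GENCODE on GRCh37, and upstream sequences from RefSeq on GRCh38.p14. Protein sequences were not analysed here. A further marker of the cell line is not reported here. Python 3.11.15 with pandas 2.3.3 and matplotlib 3.10.9 was used for tables and plots.

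The 9 genes, the gene lists and the tests were chosen with earlier results of these data known. Named genes are the 9, NGEF, every list gene called, up to 4 others with the highest mean FPKM per role, and the 3 genes most like STRA6; RBP4, TTR, RXRG and the CYP26 genes were named for values at or near 0, and others are said to be named after their values were seen. The 16 alternatives covered pseudocounts, filters, median centring, a replicate block, a term for replicate 2, replicates 1 and 3 alone, eBayes without trend, another threshold and leaving out each library.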

Additional observations from a re-analysis of the deposited data

How the results depend on the processing

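Of 303 genes called over the whole table, the count was 139 with a pseudocount of 1 FPKM, 556 with a replicate block, 564 with a term for replicate 2, 464 with the adjusted p limit raised to 0.05, and 61 to 316 with each library left out. Of the retinoid genes, 0 to 1 were called with each library left out. Among the other pathway genes 2 were called with the replicate block and 2 with the term for replicate 2 (BCO2 and RXRA), and among the responsive genes 1 under each (HOXB5). The cause was not tested. The log2 fold change of STRA6 was 1.91 with a pseudocount of 1 FPKM. With single libraries left out it turned negative for DGAT1 (-0.147 without shControl replicate 2, -0.027 and -0.060 without shEphexin1 replicates 1 and 3; range -0.147 to 0.305) and, without shEphexin1 replicate 3, for RXRB (range -0.0075 to 0.289) and PPARD (-0.036 to 0.484). Of 83 log2 fold changes recomputed for the 6 retinoid genes tested, 82 moved by less than the spread between replicates, but 6 changed sign: CRABP2 (-0.07 without shControl replicate 2 and without shEphexin1 replicate 3), RARA (0.07 without shControl replicate 3 and 0.04 without shEphexin1 replicate 2) and RARB (0.08 without shControl replicate 1 and 0.14 without shEphexin1 replicate 1). The other filters, the replicate block and the term for replicate 2 cannot change a log2 fold change in this balanced design. Their values equal the main ones and say nothing of stability, though they are counted in the 83. For the 21 other list genes named, 285 of 292 kept their direction and stayed called or not called by both limits together. Here too those settings could change the call but not the direction. The adjusted p taken alone crossed its limit more often. Same-numbered libraries were not taken as pairs: their deviations from the group means correlated at 0.0914, 0.430 and 0.328 (across genes, which are not independent), although each shControl library correlated best with its own number. With the replicate block KRT8 was also called (limma adjusted p = 0.00106), and no other call among the genes named changed. With 3 libraries a group and FPKM alone, genes near 0, such as ALDH1A1 and ALDH1A3, cannot be compared.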
